A study of Mus musculus with 6 samples.

Results

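Hemoglobin and erythroid genes were examined in tumor endothelial cells (ECs) of WT and Apelin-KO mice. The set holds 6 genes, namely the adult beta globins Hbb-bs and Hbb-bt, the adult alpha globins Hba-a1 and Hba-a2, and the red cell genes Alas2 and Slc4a1. The genes were chosen by the FPKM of Hbb-bs, which stood among the genes most raised in Apelin-KO samples, so the genotype difference of these genes is given as a description, without a test. Of the 6 genes, 5 had a value, out of 24346 genes in all, and 4 averaged 1 FPKM or more across all samples, out of 10964 such genes. Slc4a1 lay below that level, and Hbb-bt is described by its position and sequence alone. FPKM is a read level corrected for transcript length and library size.

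The study asked how the loss of Apelin, a peptide ligand of the receptor APJ that ECs secrete, alters gene expression of the tumor vasculature. MC38 cells, a mouse colon carcinoma line, were grown under the skin of C57BL/6 WT mice or of Apelin-KO mice on the same background, aged 8 to 10 weeks, and ECs positive for CD31 and negative for CD45 were sorted from the tumors at day 19. RNA-sequencing was done on 3 WT and 3 Apelin-KO samples. Sample titles of both groups name saline, and how it was given to these mice is not stated for this experiment. Apelin-KO mice lack the gene in the whole body, the deleted part of the gene is not given in the sources used here, and nothing says whether a sample came from 1 mouse or from several, so p-values measure the spread between these samples only. CD31 and CD45 were the antigens used for the sort, and dead cells were removed.

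Hemoglobin, the oxygen carrier of red cells, is a tetramer of alpha-like and beta-like globin chains, each bound to heme. The globin genes stand in an alpha cluster and a beta cluster, where embryonic genes are used by the first red cells and adult genes thereafter, and the output of both clusters is normally kept in balance. Red cells lose their nucleus but keep globin mRNA for a time as reticulocytes. Hbb-bs and Hbb-bt belong to the beta haplotype of C57BL/6 mice, whereas Hbb-b1 and Hbb-b2 are the names of the adult beta genes on the haplotype of other strains such as BALB/c. Alas2 is the erythroid form of the first enzyme of heme synthesis, and Slc4a1 encodes band 3, the anion exchanger that anchors the red cell skeleton to the membrane. ECs of small arteries can make alpha globin themselves, where it limits the spread of nitric oxide.

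Adult globin genes come in pairs that differ little, which bears on every value below, since a read that matches 2 genes has to be given to one of them or divided. In the GENCODE annotation of GRCm38, Hbb-bs lies at chr7:103826534-103828096 and Hbb-bt at chr7:103812524-103813996, both on the minus strand. Hba-a1 lies at chr11:32283511-32284465 and Hba-a2 at chr11:32296489-32297298, both on the plus strand, and each of the 4 genes has 3 exons. The coding sequences of Hbb-bs and Hbb-bt have 444 bases and differ at 1 of them (99.8% identity), by the change C417T from Hbb-bs to Hbb-bt, counted from the first coding base. Those of Hba-a1 and Hba-a2 have 429 bases and differ at 1 as well, by the change C381T. The stretches of the last exon that hold these bases are shown because they are the only coding positions that tell the copies of each pair apart, with the differing base in capitals.
Hbb-bs, coding bases 382 to 441: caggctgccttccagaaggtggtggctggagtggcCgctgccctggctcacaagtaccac
Hbb-bt, coding bases 382 to 441: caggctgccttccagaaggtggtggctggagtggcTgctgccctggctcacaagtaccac
Hba-a1, coding bases 346 to 405: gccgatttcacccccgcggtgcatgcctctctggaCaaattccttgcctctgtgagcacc
Hba-a2, coding bases 346 to 405: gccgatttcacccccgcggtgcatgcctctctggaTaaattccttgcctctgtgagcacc
Reads were 75 bases long. Of the 554 windows of that length in the Hbb-bs transcript, 356 (64.3%) occur unchanged in the Hbb-bt transcript, and of the 370 windows in its coding part, 342 (92.4%) do. Of the 625 windows of Hba-a1, 389 (62.2%) occur in Hba-a2, and these make up 81.0% of the 480 windows of Hba-a2. Hbb-bs shares 0 windows with the embryonic beta genes Hbb-y and Hbb-bh1, to which its coding sequence is 74.3% and 74.1% identical. Hba-a1 and Hba-a2 share 0 windows with the embryonic alpha gene Hba-x, to which their coding sequences are 62.0% and 61.8% identical. The GENCODE annotation has no gene under the symbols Hbb-b1 or Hbb-b2, and the sequences of these genes are not analysed here.

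The 120 bases before the RefSeq start site (GRCm38.p6) are shown for a beta globin, an alpha globin and Alas2, so that the letters known from erythroid promoters can be seen in each. Capitals mark, read on either strand, the letters GATAA known from GATA factor sites, the letters CACCC known from sites of Klf1 and its relatives, the letters CCAAT of the box named after them, and the letters TATAA of the TATA box. The GENCODE gene spans reach further upstream than these start sites.
Hbb-bs, chr7:103827929-103828048, minus strand: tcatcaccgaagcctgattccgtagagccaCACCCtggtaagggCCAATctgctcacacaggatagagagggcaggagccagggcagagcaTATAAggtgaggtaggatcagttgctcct
Hba-a1, chr11:32283552-32283671, plus strand: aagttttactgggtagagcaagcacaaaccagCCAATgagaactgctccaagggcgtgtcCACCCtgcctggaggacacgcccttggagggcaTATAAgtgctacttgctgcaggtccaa
Alas2, chrX:150547297-150547416, plus strand: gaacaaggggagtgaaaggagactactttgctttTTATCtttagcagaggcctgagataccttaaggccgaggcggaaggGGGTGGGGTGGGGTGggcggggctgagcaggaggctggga
The box CACCC occurs once before Hbb-bs and once before Hba-a1, and so do the box CCAAT and the box TATAA. In Hbb-bs the box CACCC comes first, and in Hba-a1 the box CCAAT does, while TATAA is nearest to the start site in both. The Alas2 window has GATAA once and CACCC at 3 consecutive places, all on the opposite strand. Windows of the same length that hold the 3 boxes of Hbb-bs and Hba-a1 together make up 0.688% of 32851 RefSeq promoters, and the share is 31.7% for CACCC, 21.3% for CCAAT, 11.8% for TATAA and 10.5% for GATAA alone. The 300-base RefSeq windows of Hba-a1 and Hba-a2 are the same over 297 bases, with a shift of 3. These matches describe the letters only.

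Depth, inferred from the spacing of low FPKM values, lay between 8990000 and 10250000 reads per sample, and the FPKM of a sample summed to between 489396 and 529018. Apln, the deleted gene, had 432, 435 and 504 FPKM in WT 1, 2 and 3 against 9.96, 17.5 and 24.3 FPKM in Apelin-KO 1, 2 and 3. Its log2 difference was -4.73 ± 0.29 (SE), with a limma adjusted p of 0.00747, and it was the only gene of 10964 (0.00912%) with an adjusted p under 0.05. All 15 endothelial markers passed the level filter, with sums of 5807 to 7075 FPKM in WT against 7243 to 7802 FPKM in Apelin-KO samples, and the sorted cells thus carried the markers of their label.

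Hbb-bs was low in WT and higher in each Apelin-KO sample. It stood at 7.93, 0.023 and 2.62 FPKM in WT 1, 2 and 3, against 19.9, 16.2 and 32.6 FPKM in Apelin-KO 1, 2 and 3. The groups did not overlap, and WT 2 was almost without Hbb-bs. The mean was 3.52 ± 4.03 FPKM (SD, n = 3) in WT and 22.9 ± 8.60 FPKM (SD, n = 3) in Apelin-KO, and the difference of log2(FPKM + 1) was 2.84 ± 0.72 (SE). Groups without overlap and higher in Apelin-KO were found for 7.77% of all genes tested, and among the 4 tested genes of the set Hbb-bs alone was of this kind. By size of difference it stood between Mir1957b (5.57) and Hotairm1 (1.91) among these genes, which is the position for which it was picked. As reads, the values are small. They correspond to about 34.5, 0.0887 and 10.3 reads in WT against 79.9, 71.0 and 132 reads in Apelin-KO, with 1 read worth 0.227 to 0.259 FPKM, so the value of WT 2 was below that of 1 read. The size of the difference moved with the pseudocount, from 1.77 with 5 to 3.98 with 0.1.

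**Figure D1:**
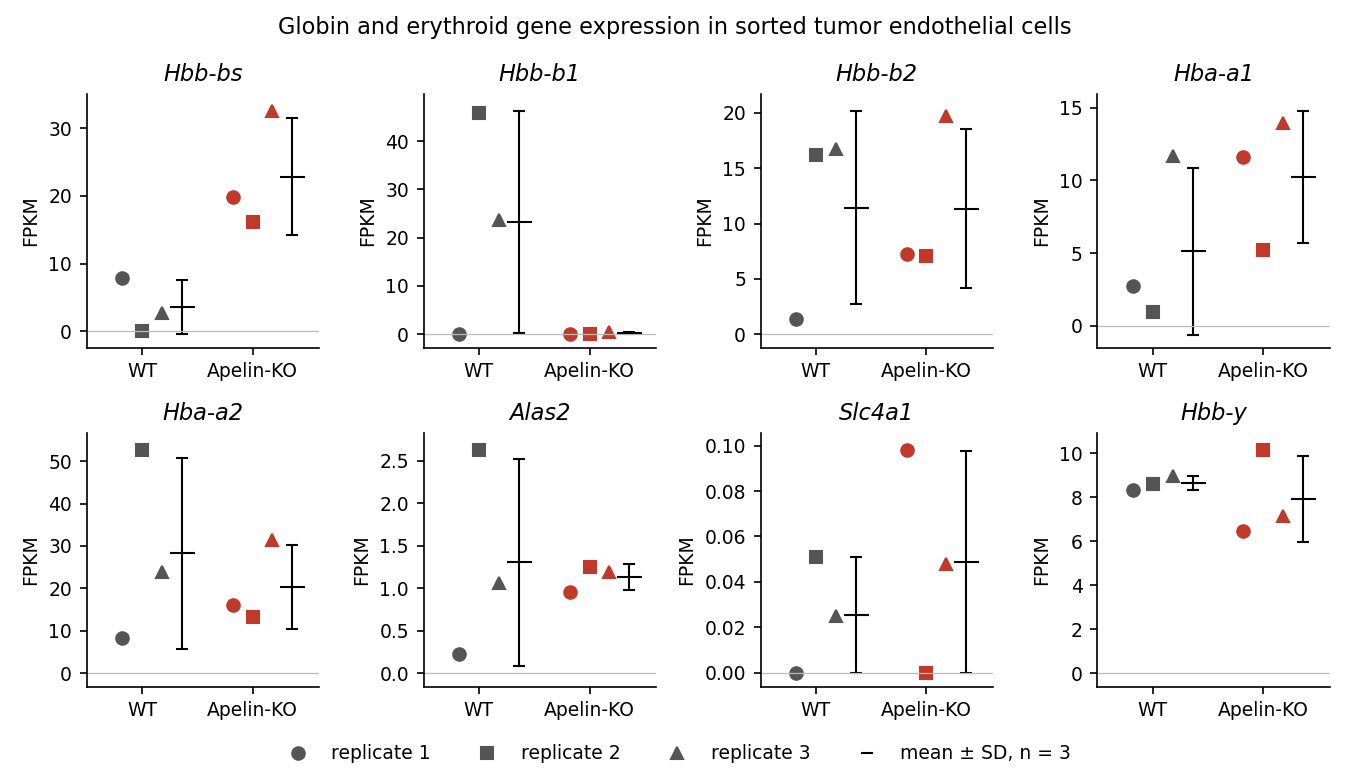
FPKM of 5 genes of the set and of Hbb-b1, Hbb-b2 and Hbb-y in each sample (points, shape by replicate number), with the mean ± SD of 3 samples beside each group. Hbb-bs sits at 16.2 FPKM or above in each Apelin-KO sample and at 7.93 FPKM or below in WT, Hbb-b1 is above 1 FPKM in WT 2 and WT 3 alone, and the groups overlap in every panel but that of Hbb-bs.

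The adult beta gene Hbb-b1 showed the reverse of Hbb-bs. It had 0.021, 45.9 and 23.7 FPKM in WT 1, 2 and 3, against 0.047, 0.021 and 0.367 FPKM in Apelin-KO 1, 2 and 3. WT 2 and WT 3, which had the least Hbb-bs, thus had the most Hbb-b1, and WT 1 was as low in Hbb-b1 as the Apelin-KO samples. Its log2 difference was -3.22 ± 1.30 (SE), with an unadjusted p of 0.0417 and an adjusted p of 0.521 by limma, and the groups overlapped through WT 1. The difference ran from -1.92 with a pseudocount of 5 to -4.91 ± 0.29 (SE) without WT 1. It was -2.15 without WT 2 and -2.61 without WT 3, with unadjusted p-values of 0.125 and 0.117 by limma. The limma adjusted p was 0.0110 without WT 1, and ran from 0.483 to 0.939 over the other alternatives. Leaving out WT 1 removes the overlap, so that fit is no separate support for a difference. The difference of Hbb-b1 is not independent of that of Hbb-bs where the genes share reads.

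Hbb-b2, the second adult beta gene of that naming, had 1.39, 16.2 and 16.7 FPKM in WT against 7.29, 7.11 and 19.7 FPKM in Apelin-KO samples. Its groups overlapped, with a log2 difference of 0.31 ± 0.80 (SE). Added together, Hbb-bs and Hbb-b1 gave 7.95, 45.9 and 26.4 FPKM in WT 1, 2 and 3, against 19.9, 16.2 and 32.9 FPKM in Apelin-KO 1, 2 and 3. The groups of this sum overlapped fully, the highest and the lowest value both being WT, and its log2 difference was 0.03, against 2.84 for Hbb-bs alone.

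The samples differed in which beta gene carried the signal. Hbb-bs made up 84.9%, 0.037% and 6.07% of the beta sum (Hbb-bs, Hbb-b1 and Hbb-b2) in WT 1, 2 and 3, against 73.1%, 69.4% and 61.9% in Apelin-KO 1, 2 and 3. For Hbb-b1 the shares were 0.225%, 73.9% and 55.1% in WT against 0.173%, 0.0902% and 0.697% in Apelin-KO. By these shares WT 1 stood with the Apelin-KO samples, and WT 2 and WT 3 apart from them. The share of Hbb-bs and Hbb-b1 together overlapped between groups, at 85.1%, 73.9% and 61.2% in WT against 73.2%, 69.5% and 62.6% in Apelin-KO. Hbb-b2 held the rest, from 14.9% in WT 1 to 38.8% in WT 3. How reads common to these genes were divided was not tested, because no read counts or alignments were used here, and the sources do not state the gene annotation or the handling of such reads. Whether the samples differ in beta globin haplotype was not tested either.

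**Figure D2:**
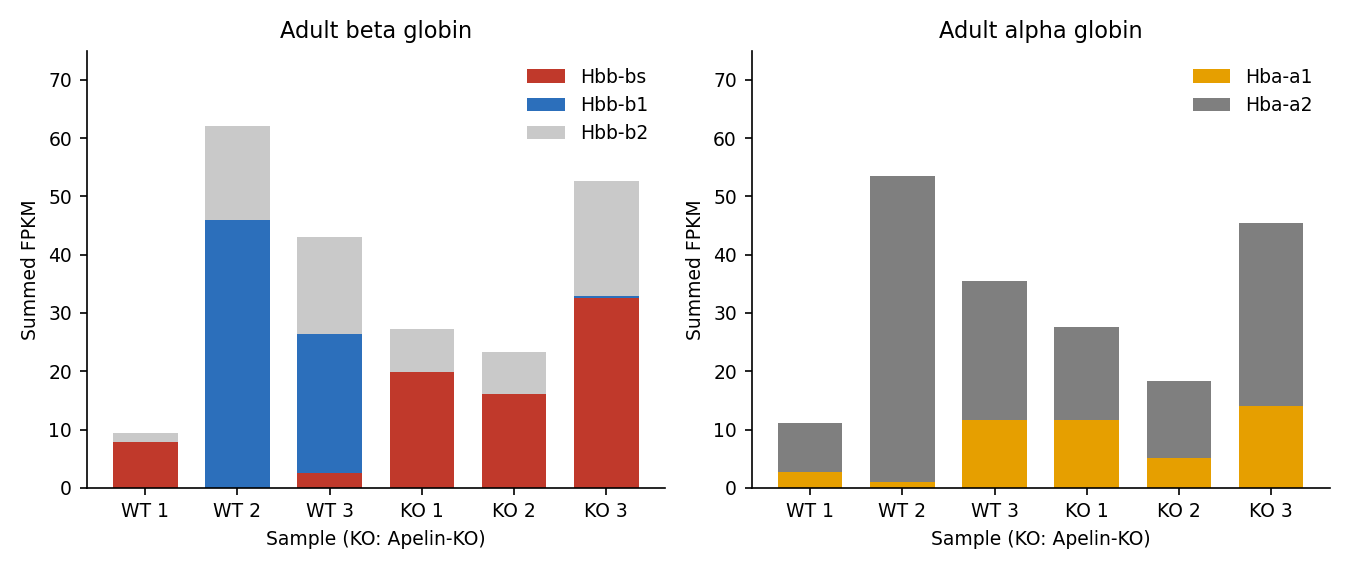
Stacked FPKM of the adult beta globins (left) and adult alpha globins (right) in each sample, with colors for genes. Bar heights overlap between WT (9.34 to 62.1 FPKM for beta) and Apelin-KO (23.3 to 52.6 FPKM), while the main beta gene is Hbb-b1 in WT 2 and WT 3 and Hbb-bs in the other 4 samples.

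The alpha genes showed no separation of the genotypes. Hba-a1 had 2.76, 0.963 and 11.7 FPKM in WT 1, 2 and 3, against 11.6, 5.19 and 14.0 FPKM in Apelin-KO 1, 2 and 3, with a log2 difference of 1.21 ± 0.67 (SE). This difference became 0.61 without WT 2 and 1.95 without WT 3, and ran from 0.69 with a pseudocount of 5 to 1.53 with 0.1. WT 3 lay among the Apelin-KO samples. Hba-a2 had 8.30, 52.5 and 23.9 FPKM in WT against 16.1, 13.1 and 31.5 FPKM in Apelin-KO, with a log2 difference of -0.22 ± 0.62 (SE). With 1 sample left out, the difference of Hba-a2 ran from -0.88 without WT 1 to 0.38 without WT 2. It was -0.58 without Apelin-KO 3 and 0.02 without Apelin-KO 2. WT 2 held both the most Hba-a2 and the least Hba-a1. Hba-a1 made up 1.80% of alpha globin in WT 2, and between 24.9% and 41.9% in the other 5 samples. The estimated reads behind these genes ran from 4.33 (WT 2) to 66.0 (Apelin-KO 3) for Hba-a1 and from 29.9 (WT 1) to 168 (WT 2) for Hba-a2.

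Summed by cluster, globin expression did not separate the genotypes. Beta globin summed to 9.34, 62.1 and 43.1 FPKM in WT 1, 2 and 3, against 27.2, 23.3 and 52.6 FPKM in Apelin-KO 1, 2 and 3, that is 38.2 ± 26.7 against 34.4 ± 15.9 FPKM (SD, n = 3 each). Alpha globin summed to 11.1, 53.5 and 35.6 FPKM in WT against 27.6, 18.3 and 45.5 FPKM in Apelin-KO, that is 33.4 ± 21.3 against 30.5 ± 13.8 FPKM. The log2 differences of the sums were 0.12 for beta and 0.03 for alpha, against SDs of 1.38 and 1.13 within WT on the same scale. The samples stood in the same order for both sums, from WT 1 over Apelin-KO 2, Apelin-KO 1, WT 3 and Apelin-KO 3 to WT 2. All adult globins summed to 20.4, 116 and 78.6 FPKM in WT against 54.9, 41.6 and 98.1 FPKM in Apelin-KO, a 5.67-fold range whose ends were both WT, with a log2 difference of 0.08. Restricted to Hbb-bs, Hba-a1 and Hba-a2, the log2 difference was 0.56, with sums of 53.5 FPKM or less in WT and of 34.5 to 78.0 FPKM in Apelin-KO. Adult globins took between 0.00415% and 0.0236% of the FPKM of a sample. In bulk samples, fewer cells with globin mRNA and less globin mRNA per cell cannot be told apart.

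The ratio of alpha to beta globin was steady once all beta genes were counted. It was 1.18, 0.861 and 0.826 in WT 1, 2 and 3, against 1.01, 0.787 and 0.864 in Apelin-KO 1, 2 and 3, with a median of 0.863. Against Hbb-bs alone it was 1.40 in WT 1 and 13.6 in WT 3, and 1.39, 1.13 and 1.40 in Apelin-KO 1, 2 and 3. No ratio is given for WT 2, where Hbb-bs lay below the level of 1 read. Of the 5 ratios given, that of WT 3 lay apart from the others.

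**Figure D3:**
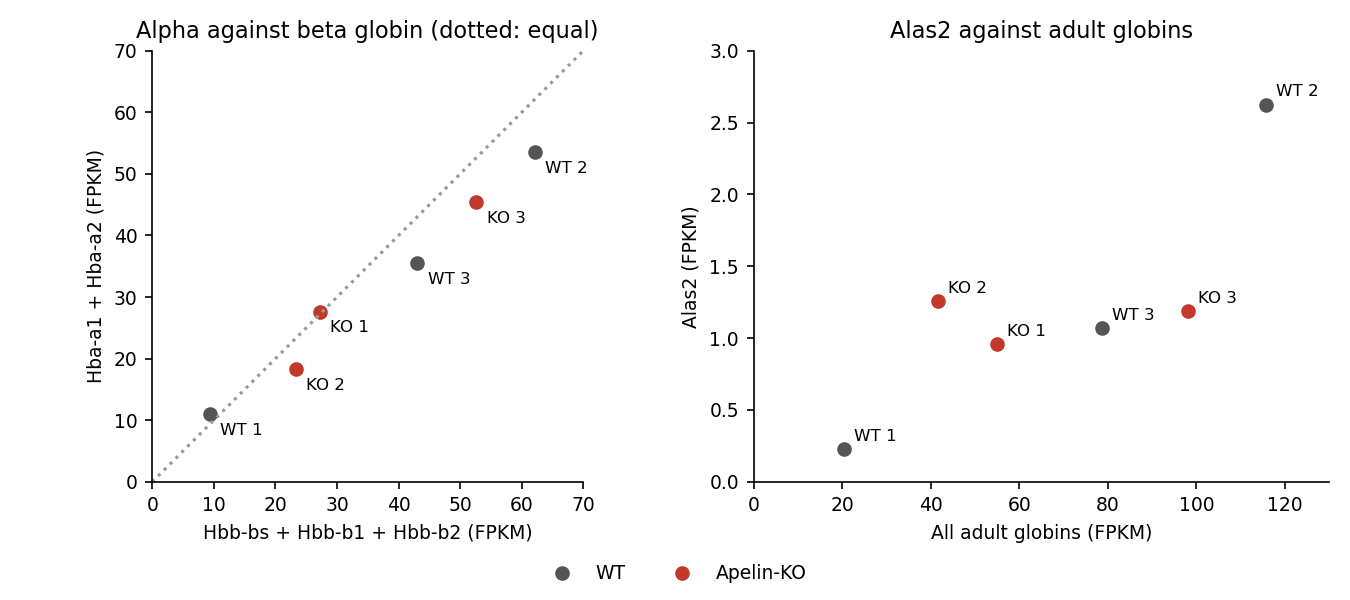
Left, summed alpha against summed beta globin in FPKM for each sample, with a dotted line where they are equal. Right, Alas2 against all adult globins in FPKM. On the left the 6 samples lie near the line, from WT 1 (9.34 beta, 11.1 alpha) to WT 2 (62.1 beta, 53.5 alpha), with both genotypes interleaved. On the right WT 1 is lowest and WT 2 highest on both axes.

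Alas2 was low in all samples and did not separate the groups. It had 0.227, 2.63 and 1.07 FPKM in WT 1, 2 and 3, against 0.959, 1.26 and 1.19 FPKM in Apelin-KO 1, 2 and 3, or about 4.23 to 43.4 reads. The Apelin-KO values lay between the WT extremes, and the log2 difference was 0.02 ± 0.35 (SE). Its sign changed with the pseudocount and with the sample left out, from -0.36 without WT 1 to 0.42 without WT 2. As with the globin sums, WT 1 was lowest and WT 2 highest. Per 100 FPKM of adult globins there were 1.11, 2.27 and 1.36 FPKM of Alas2 in WT against 1.75, 3.02 and 1.21 FPKM in Apelin-KO. Alas2 (chrX:150547375-150570638, plus strand) overlaps Apex2 on the minus strand, and whether the counting used the strand is not stated.

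Slc4a1 (chr11:102348824-102366203, minus strand) was at the edge of detection. It was listed at 0, 0.051 and 0.025 FPKM in WT 1, 2 and 3, against 0.098, 0 and 0.048 FPKM in Apelin-KO 1, 2 and 3, which is 3.99 reads or fewer in each sample. No difference could be read at this depth.

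Embryonic globins, compared above with Hbb-bs and the adult alpha genes, were even across the samples. Hbb-y had 8.34, 8.60 and 8.97 FPKM in WT against 6.46, 10.1 and 7.16 FPKM in Apelin-KO. Hba-x had 7.99, 6.20 and 10.2 FPKM in WT against 8.12, 8.89 and 9.39 FPKM in Apelin-KO. Their sum lay between 14.6 and 19.2 FPKM, a 1.32-fold range against the 5.67-fold range of the adult genes, and made up between 11.3% (WT 2) and 44.5% (WT 1) of the embryonic and adult globins together. The limma log2 differences were -0.13 ± 0.16 (SE) for Hbb-y and 0.12 ± 0.17 (SE) for Hba-x, with groups that overlapped. Hbb-bh1 lay between 0.731 and 1.69 FPKM, Hbq1b had 0.181 FPKM in WT 1 and 0 elsewhere, and Hbb-bh2 and Hbq1a were listed at 0 in all samples.

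Other genes of the red cell lineage were counted in 6 lists of further globins, heme synthesis, red cell membrane and skeleton, erythroid transcription, erythropoietin and iron uptake, and reticulocyte enzymes. Of 92 genes listed 89 had a value and 56 passed the level filter. Among these, 9 (16.1%) had an unadjusted p under 0.05 by limma, 6 of them higher and 3 lower in Apelin-KO, where 9.42% of all genes had one (4.25% higher and 5.17% lower). After scaling each sample to the same sum the split was 5 higher and 1 lower, and it was 2 and 2 without WT 2 and 3 and 2 without Apelin-KO 2. By adjusted p there were 0, and the lowest adjusted p was 0.501. The median log2 difference was 0.07, against 0.01 for all genes, with 36 genes above and 20 below 0. The groups did not overlap for 10 genes higher and 2 lower in Apelin-KO, where 7.77% and 6.61% of all genes were of these kinds. Among the 3 genes lower by unadjusted p was Hbb-b1, whose difference is not independent of that of Hbb-bs where they share reads.

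Some listed genes of the red cell lineage were at or near 0, and others were well above it. Of the 89 with a value, 13 were at 0 in all 6 samples, Hbb-bh2 and Hbq1a among them. This was a smaller share than over all genes, where 8005 of 24346 were. Gypc, Bpgm and Prdx2 of the same lists averaged 23.9, 25.2 and 300 FPKM over the samples. Listed at 0 in all 6 samples were Gata1, a transcription factor that the lineage requires, its partner Gfi1b, the Rh-associated glycoprotein Rhag, the blood group protein Kel, the skeletal anchor Ank1, the adhesion protein Icam4, the carbonic anhydrase Car1 and the red cell and liver pyruvate kinase Pklr, as well as Trim58, Cldn13 and Ypel4. At the estimated depths, 3 reads of Gata1 would have given 0.172 to 0.196 FPKM, and 3 reads of Rhag 0.137 to 0.156 FPKM. Klf1, the activator of adult beta globin, had 0.148, 0.166 and 0 FPKM in WT against 0.08, 0 and 0 FPKM in Apelin-KO. Rhd, the Rh blood group antigen, was below the filter and lower in Apelin-KO, at 0.974, 0.845 and 0.581 FPKM in WT against 0.081, 0.297 and 0.161 FPKM in Apelin-KO, or between 13.0 reads (WT 1) and 0.997 reads (Apelin-KO 1). It was not tested.

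All 14 listed genes of heme synthesis and of the transport that serves it passed the filter. An unadjusted p under 0.05 was found for 1 of them, where 9.42% of all genes had one, and the median log2 difference was -0.01. Ppox, which makes protoporphyrin, had 6.98, 5.13 and 6.79 FPKM in WT against 9.80, 8.58 and 7.49 FPKM in Apelin-KO, with a log2 difference of 0.40 ± 0.15 (SE). Its p was over 0.05 without WT 2 (0.0935), Apelin-KO 1 (0.0897) or Apelin-KO 2 (0.0656) and with each gene's own variance (0.0627). Alas1, the housekeeping counterpart of Alas2, had 25.7 to 27.3 FPKM in WT against 28.0 to 30.0 FPKM in Apelin-KO, with a log2 difference of 0.11 ± 0.09 (SE) and an unadjusted p of 0.290 by limma. In FPKM, Alas1 stood above Alas2 in every sample.

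Of the membrane genes 7 of 20 passed the filter and 13 did not. Aqp1, a water channel of red cells that ECs express as well, had 265, 243 and 294 FPKM in WT against 310, 336 and 424 FPKM in Apelin-KO, with a log2 difference of 0.41 ± 0.15 (SE) and an unadjusted p of 0.0270 by limma. It was the 1 gene of the 7 with such a p, where 9.42% of all genes had one, and the p was 0.0640 without WT 1, 0.0873 without WT 2, 0.0685 without Apelin-KO 3 and 0.0594 with each gene's own variance.

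Of 12 erythroid transcription factors 6 passed the filter, and 3 of these were higher in Apelin-KO by unadjusted p and 0 lower, where 4.25% of all genes were higher and 5.17% lower by this rule. Gata2, a factor of blood progenitors and ECs, had 13.3, 13.5 and 12.9 FPKM in WT against 16.3, 17.1 and 15.9 FPKM in Apelin-KO, with a log2 difference of 0.29 ± 0.09 (SE). Ldb1, which links distant enhancers to promoters, differed by 0.32 ± 0.11 (SE) without overlap. Zfpm1, the GATA cofactor FOG1, differed by 0.95 ± 0.30 (SE), from 4.13, 4.79 and 10.2 FPKM in WT to 13.4, 14.1 and 9.89 FPKM in Apelin-KO, with WT 3 above Apelin-KO 3. Tal1 (0.32 ± 0.15, SE) and Zbtb7a (0.20 ± 0.11, SE), a repressor of embryonic globin, did not overlap between groups and had unadjusted p-values of 0.0637 and 0.106 by limma. Zfpm1 lost its p under 0.05 without WT 2, without Apelin-KO 2 and with each gene's own variance, Ldb1 without WT 2 or Apelin-KO 3, and Gata2 without WT 3 or Apelin-KO 2 and after scaling to the same sum. The 15 endothelial markers were higher in Apelin-KO as well, with a median log2 difference of 0.24 against 0.30 for the 6 factors, and the part of the one shift in the other was not tested.

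Epor, the receptor of the hormone that drives red cell formation, was higher in each Apelin-KO sample than in any WT sample. It had 7.12, 4.02 and 6.62 FPKM in WT against 11.4, 10.6 and 18.6 FPKM in Apelin-KO, with a log2 difference of 1.06 ± 0.26 (SE), an unadjusted p of 0.00459 and an adjusted p of 0.501 by limma. All 15 endothelial markers were higher in Apelin-KO as well, and which cells carried Epor was not tested. In the list of Epor, with 9 tested genes, the iron transporter Slc11a2 was lower in Apelin-KO. Its values were 12.7 to 15.5 FPKM in WT against 10.1 to 12.4 FPKM in Apelin-KO. The log2 difference was -0.30 ± 0.13 (SE), with an unadjusted p of 0.0494 by limma. With 1 sample left out, this p stayed under 0.05 only without WT 3 (0.0243). It was also over 0.05 with a pseudocount of 0.1, after scaling to the same sum and with each gene's own variance. Of the reticulocyte and red cell enzymes 15 were tested. Blvrb, a reductase of biliverdin abundant in red cells, was lower in Apelin-KO, with 24.0, 28.8 and 23.9 FPKM in WT against 16.0, 15.4 and 19.7 FPKM, a log2 difference of -0.56 ± 0.13 (SE) and an unadjusted p of 0.00387 by limma. Mkrn1 (0.16 ± 0.10, SE) and Xpo7 (0.08 ± 0.09, SE) did not overlap between groups, with differences within 2 standard errors. Tspan33, chosen after its values were seen, was high in Apelin-KO 3 alone, at 7.27 FPKM against 0.242 to 1.84 FPKM in the other samples.

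**Figure D4:**
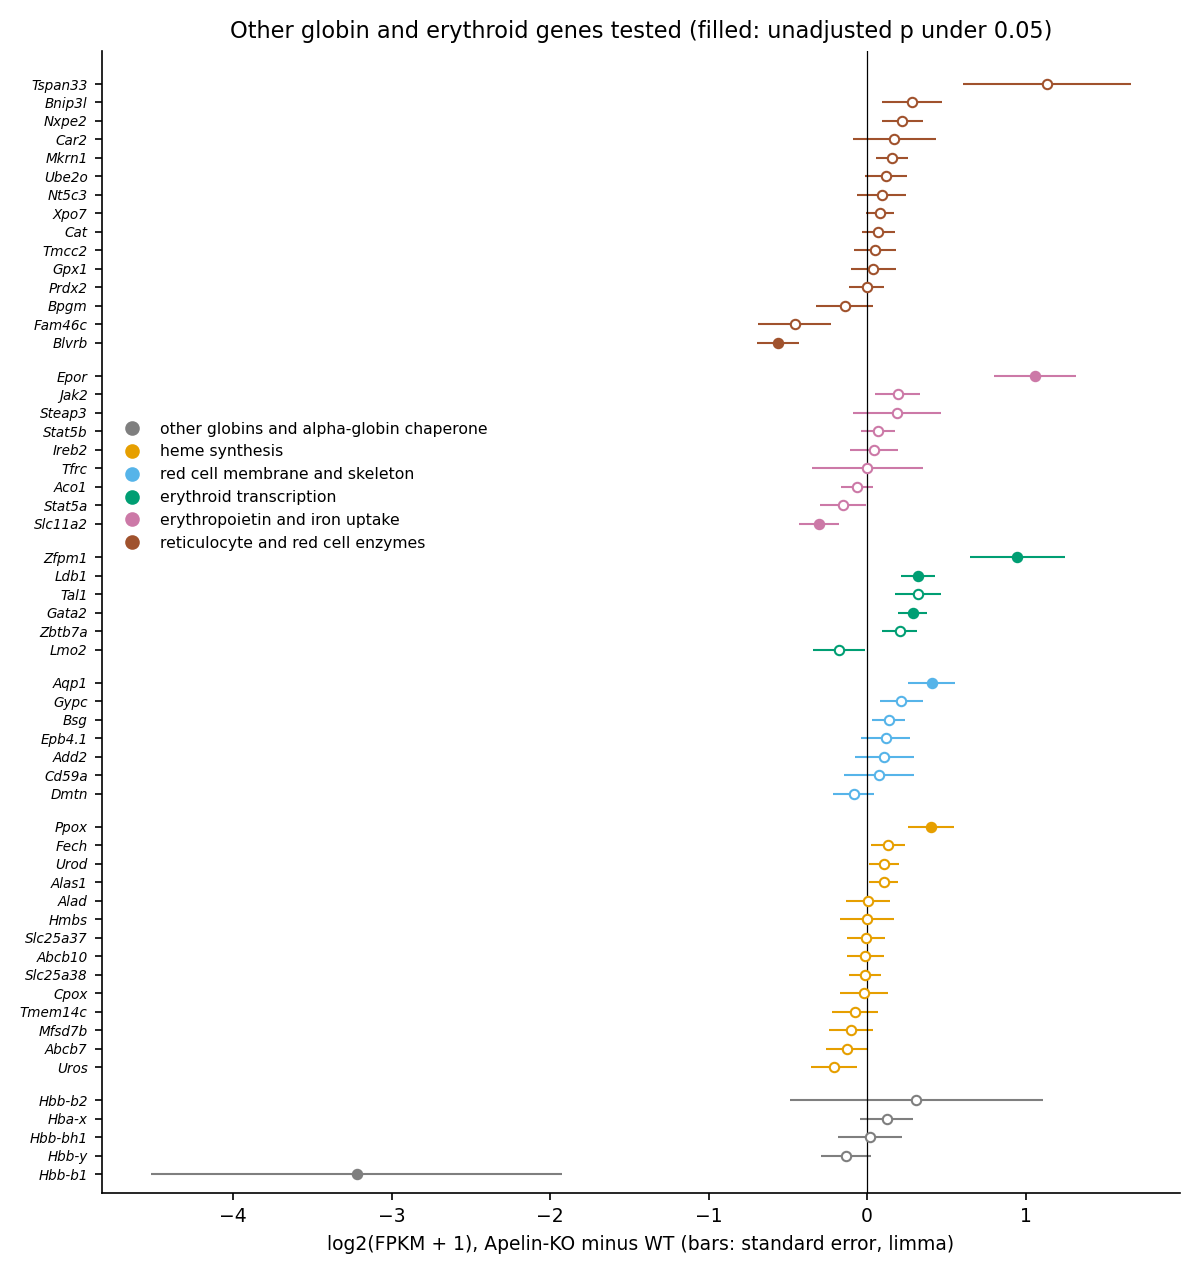
Difference of log2(FPKM + 1), Apelin-KO minus WT, for the 56 tested genes of the 6 lists, colored by list, with limma standard errors (n = 3 against 3). Filled points mark the 9 genes with an unadjusted p under 0.05, of which Epor (1.06) and Zfpm1 (0.95) lie farthest to the right and Hbb-b1 (-3.22) farthest to the left.

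Of 14 genes of heme breakdown and iron storage, 9 were tested and 0 had an unadjusted p under 0.05 by limma, where 9.42% of all genes had one. Heme oxygenase Hmox1 had 40.9, 28.6 and 27.1 FPKM in WT against 29.2, 30.7 and 57.2 FPKM in Apelin-KO, and ferritin heavy chain Fth1 1444, 1421 and 1305 against 1250, 1230 and 1423 FPKM. Nfe2l2, a regulator of both, did not overlap between groups, with a log2 difference of 0.22 ± 0.10 (SE) and an unadjusted p of 0.0722 by limma, which lay between 0.0390 and 0.0470 with a pseudocount of 5, without a filter, with an intensity trend or with each gene's own variance. Among partners of alpha globin in ECs, Nos3, the endothelial nitric oxide synthase, had 113, 96.6 and 113 FPKM in WT against 123, 119 and 122 FPKM in Apelin-KO, without overlap, with a log2 difference of 0.18 ± 0.10 (SE) and an unadjusted p of 0.135 by limma. Cyb5r3, the reductase that acts on alpha globin, overlapped between groups (0.15 ± 0.11, SE). Gucy1b3, a subunit of the nitric oxide receptor, was below the filter, at 0.182 to 0.394 FPKM in WT against 0.509 to 0.872 FPKM in Apelin-KO.

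Markers of other blood cells were present besides globin mRNA. Of 19 leukocyte markers with a value, 13 were tested, 12 were lower in Apelin-KO and 5 had an unadjusted p under 0.05 by limma (Ptprc, Itgam, Adgre1, Tyrobp and C1qa), all lower, where 5.17% of all genes had such a p and were lower and 5209 of 10964 genes were lower at any p. Their summed level was 585, 1005 and 286 FPKM in WT 1, 2 and 3, against 129, 347 and 313 FPKM in Apelin-KO 1, 2 and 3. WT 2 was highest in leukocyte markers and in adult globins, whereas WT 1 was second in leukocyte markers and lowest in globins. Of 15 platelet markers 4 were tested and 0 had such a p. They summed to between 95.2 and 139.9 FPKM, most of it the integrin Itgb3 that ECs express as well, and Gp6 and Treml1 were at 0. All 15 endothelial markers were higher in Apelin-KO, 4 of them with an unadjusted p under 0.05 by limma (Pecam1, Cdh5, Tie1 and Vwf), where 4.25% of all genes had such a p and were higher and 5755 of 10964 genes were higher at any p. All 4 lost this p without WT 1, WT 2 or Apelin-KO 3, and all 5 leukocyte markers lost theirs with each gene's own variance and without Apelin-KO 1. The part of these cells in the globin values was not tested.

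Genes with a profile like that of the globins were ranked by the root mean square difference of centred log2 values over the 6 samples. Nearest to the sum of Hbb-bs, Hba-a1 and Hba-a2 were Sult5a1 (0.27), Clec14a (0.28), Mylpf (0.31), Fas (0.33), Fabp4 (0.34), Pcgf1 (0.34) and Akr1c14 (0.34). None of these encodes a globin. Alas2 ranked 140 of 10964 and Hbb-bs, part of the sum, 10906. Against all adult globins, a sum chosen after the values were seen, Alas2 ranked 9 of 10964 (0.50). The genes ahead of it were Mir6340 (0.21), Hba-a2 (0.23) and Hbb-b2 (0.34), which are part of the sum but for Mir6340, and Rarres2 (0.41), Akr1c14 (0.45), Hist1h2ab (0.49), Scgb3a1 (0.49) and Rsg1 (0.50). Hbb-bs ranked 10913 and Hbb-b1 10910, near the end of the list.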

How the data were processed

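RNA of sorted tumor ECs (3 WT and 3 Apelin-KO samples) had been made into stranded mRNA libraries and sequenced as 75-base single-end reads. The submitters' processing notes name bcl2fastq 2.17.1.14, TopHat2 2.1.1, Bowtie2 2.2.4, SAMtools 1.0, Cufflinks 2.2.1 and mm10. The published methods name Casava for base-calling and other versions of TopHat, Bowtie2 and SAMtools, with the same Cufflinks version and genome. Which of these were used cannot be told here. The authors deposited FPKM per gene symbol and sample. The annotation, strand setting and handling of reads with several matches are not given in the sources used here.

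No further scaling was applied to the FPKM, which were analysed as log2(FPKM + 1). Of 24346 genes, the 10964 that averaged 1 FPKM or more were fitted with limma 3.58.1 in R 4.3.3 (two-sided moderated test, no intensity trend, no block, Benjamini-Hochberg adjustment), tested on simulated data first. The groups come from the sample labels. Log2 differences are Apelin-KO minus WT, and understate the change of low genes. An exact permutation test of 3 against 3 samples cannot go below 0.1, so none was run. Alternatives changed the pseudocount, filter, scaling, variance, block and samples included. Adding Hbb-b1 and Hbb-b2 to the sums was chosen after seeing the data. The genes examined, the lists and the rule for named genes (from each list the genes with an unadjusted p under 0.05 or without overlap, otherwise up to 3 by level, and the 8 nearest in profile) were chosen with earlier results of these data known. Some genes that the rule names are not reported here. For 4 listed genes older symbols were matched.

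Depth was estimated from 3742 genes with a single annotated transcript over 700 bases, assuming 200-base fragments. At these depths 68.3% to 71.1% of the low values were whole reads to within 0.1. Reads of single genes and the level that 3 reads would give are estimates and cover counting error only. Too few values were whole for a count test. Positions and transcripts are from GENCODE, and promoters from RefSeq (5 of the 6 genes had one). Figures used matplotlib 3.10.9, pandas 2.3.3 and numpy 2.4.6 in Python 3.11.15.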

Additional observations from a re-analysis of the deposited data

How the results depend on the processing

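The count of genes with an adjusted p under 0.05 was 1, and 2 with a pseudocount of 5, without a filter, with a mean of at least 5 FPKM or with an intensity trend, 0 with each gene's own variance, and 0 to 3 with 1 sample left out (0 without WT 2 or Apelin-KO 2). Without WT 1, the sample through which the groups of Hbb-b1 overlap, the 3 genes included Hbb-b1. Of the other erythroid genes, 9 had an unadjusted p under 0.05, 5 with each gene's own variance, and 4 to 9 with 1 sample left out (4 without WT 2, 5 without Apelin-KO 2 or Apelin-KO 3). Epor and Blvrb kept such a p under every alternative run, whereas Hbb-b1 lost it in 9 of them and Slc11a2 in 8. Over 18 named genes with such a p, it was lost in 55 and kept in 53 fits with 1 sample left out, and lost in 28 and kept in 132 other fits. With 1 sample left out, the log2 difference of Hbb-bs lay between 2.01 (without WT 2) and 3.57 (without WT 1), and that of the sum of Hbb-bs, Hba-a1 and Hba-a2 between 0.15 (without WT 1) and 0.88 (without WT 2). With all 6 samples the latter was 0.56, and 0.08 with Hbb-b1 and Hbb-b2 added. The median ratio of alpha to beta globin over all 6 samples, WT 2 with its Hbb-bs below 1 read included, went from 1.40 to 0.863 with these genes added. The cause of these shifts was not tested. With the replicate number as a replicate block, 1 gene had an adjusted p under 0.05 and 9 other erythroid genes an unadjusted p under 0.05. Samples with the same number correlated at -0.14, 0.21 and -0.02 in their deviations from the group means. Those with different numbers correlated at -0.20 to 0.21. With 3 samples a group, these values cannot decide whether the numbers pair the samples, and the labels do not say that they do. Slc4a1 and Klf1 rest on a few reads each, so their differences could not be measured here.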
